A study of Homo sapiens with 12 samples.

Results

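Transcript levels of 10 genes of the transforming growth factor beta (TGF-beta) and bone morphogenetic protein (BMP) pathways were examined in HT1080 cells. They were chosen by gene symbol, with earlier results of these data known. They are the ligands BMP2, BMP4, TGFB1 and TGFB2, the receptors TGFBR1 and TGFBR2, the inhibitory proteins SMAD6 and SMAD7, and the target genes ID1 and ID3. All 10 are listed among the 16101 genes of the PMA table and the 15991 genes of the ConA table, and all 10 had the mean level needed for testing in both. HT1080 is an established fibrosarcoma line, labelled as connective tissue and wild type. All 12 libraries came from cells kept for 3 days after seeding in biotin-depleted medium with 10% serum and then moved to low-serum medium (1%) for treatment. One experiment compared 3 control libraries with 3 from cells treated for 24 h with PMA (phorbol 12-myristate 13-acetate, 40 nM), a phorbol ester that activates protein kinase C. The other compared 3 libraries of cells given 40 ug/mL concanavalin A (ConA), a lectin that binds mannose- and glucose-containing glycans, for 24 h with 3 control libraries of its own. The labels do not say whether controls received a vehicle, or whether replicates came from separate cultures, so p-values measure the spread between these libraries only.

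TGF-beta and BMP ligands are secreted dimers that assemble type I and type II serine/threonine kinase receptors at the cell surface. Receptors for TGF-beta phosphorylate SMAD2 and SMAD3 and those for BMPs phosphorylate SMAD1, SMAD5 and SMAD9, and these enter the nucleus with SMAD4. SMAD6 and SMAD7 are induced by the pathway and inhibit it, and the ID genes, which encode dominant-negative partners of helix-loop-helix factors, are direct targets of BMP signaling. In connective tissue cells TGF-beta drives matrix production.

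The values are the authors' normalized counts per gene, with no correction for transcript length, so levels were compared between samples and not between genes. The libraries held about 33616598 to 45567990 estimated reads on genes, and replicate libraries differed by 3.53 to 16.42 times the squared difference that sampling alone gives. The fewest estimated reads of any of the 10 genes in a library were the 17.0 of SMAD6 with PMA. Mesenchymal markers were present, with 8 of 8 listed. Their sums were 492220.0 to 506371 normalized counts in the PMA controls and 474266 to 495368 with PMA, which overlapped, and 558930.0 to 638742 in the ConA controls and 424959 to 460179 with ConA, which did not. Among them SPARC (log2 fold change -1.53) and COL5A1 (-1.34) fell with PMA and S100A4 (-1.05) fell with ConA, past the thresholds given below. The others went both ways. With PMA they were VIM (0.49), CD44 (0.13), COL6A1 (-0.13), CDH2 (-0.29), S100A4 (-0.33) and FN1 (-0.56). With ConA they were CDH2 (0.47), COL6A1 (0.25), SPARC (0.03), COL5A1 (-0.35), CD44 (-0.40), FN1 (-0.68) and VIM (-0.79). In normalized counts the ConA falls were largest for FN1 (268826 to 166724) and VIM (138419 to 79796). Of 7 epithelial markers 5 were listed in the PMA table, with sums of 27765 to 29657 in the controls and 15703 to 16337 with PMA, and 7 in the ConA table, with 39309 to 40874 in the controls and 34698 to 37621 with ConA. These sums did not overlap between treated and control libraries in either table. Most of each sum came from the keratins KRT8 and KRT18. KRT8 fell with PMA past the thresholds, from 15196 to 6528 (log2 fold change -1.22), and no other listed epithelial marker passed them with either treatment. EPCAM and CDH1 were not listed in the PMA table and had group means of at most 22.5 normalized counts in the ConA table. Of 10 leukocyte markers 7 were listed in the PMA table, while CD79A, MS4A1 and CD14 were not listed. Their sums were 623 to 712 in the controls and 751 to 1208 with PMA, without overlap. The highest means were those of PTPRC (180 in the controls and 243 with PMA), NKG7 (176 and 259) and CD3E (117 and 203). CD3D (84.0 and 103) and CD2 (75.9 and 103) came next. For ConA 3 of the 10 were listed, with sums of 112 to 143 in the controls and 132 to 201 with ConA, which overlapped. Their means were 93.3 and 111 (LYZ), 26.6 and 24.2 (CD3D) and 3.69 and 29.4 (ITGAM). ITGAM stood at 1.04 to 7.01 in the controls and 20.7 to 35.5 with ConA. Its log2 fold change of 2.88 was short of the threshold on adjusted p. PTPRC, NKG7, CD3E and CD2 were not listed in the ConA table. Of 5 endothelial markers 4 were listed, all except CDH5, with sums of 165 to 209 in the PMA controls and 208 to 218 with PMA, and of 191 to 242 in the ConA controls and 261 to 280.1 with ConA, the latter without overlap. The part of these in the results was not tested. RNA was taken from whole cultures, so fewer cells expressing a gene and less of its RNA per cell cannot be told apart.

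With PMA, BMP2 rose and BMP4, TGFB2, SMAD6 and ID1 fell, and with ConA BMP2 rose and BMP4 fell. Calls required a log2 fold change of 1 or more in size and an adjusted p no higher than 0.0001 in limma, which fits a linear model to all genes of a table (SE, standard error). Because the 10 genes were chosen with earlier results of these data known, their counts are descriptions and no test against all genes. With PMA 5 of the 10 genes were called, 1 higher and 4 lower, where 8.65% of the 15153 genes tested were called (4.03% higher and 4.61% lower). With ConA 2 of 10 were called, 1 higher and 1 lower, where 8.71% of the 15139 genes tested were called (5.83% higher and 2.88% lower). BMP2 and BMP4 were called with both treatments, 2 of 10 genes, where 2.31% of 14661 genes were. The median log2 fold change of the 10 genes was -0.39 with PMA and -0.33 with ConA, beside medians of 0.0029 and -0.0022 over all genes tested. The groups were fully apart for 9 of 10 genes with PMA and for 9 of 10 with ConA, shares to be read against 67.9% and 69.3% of all genes tested.

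**Figure D1:**
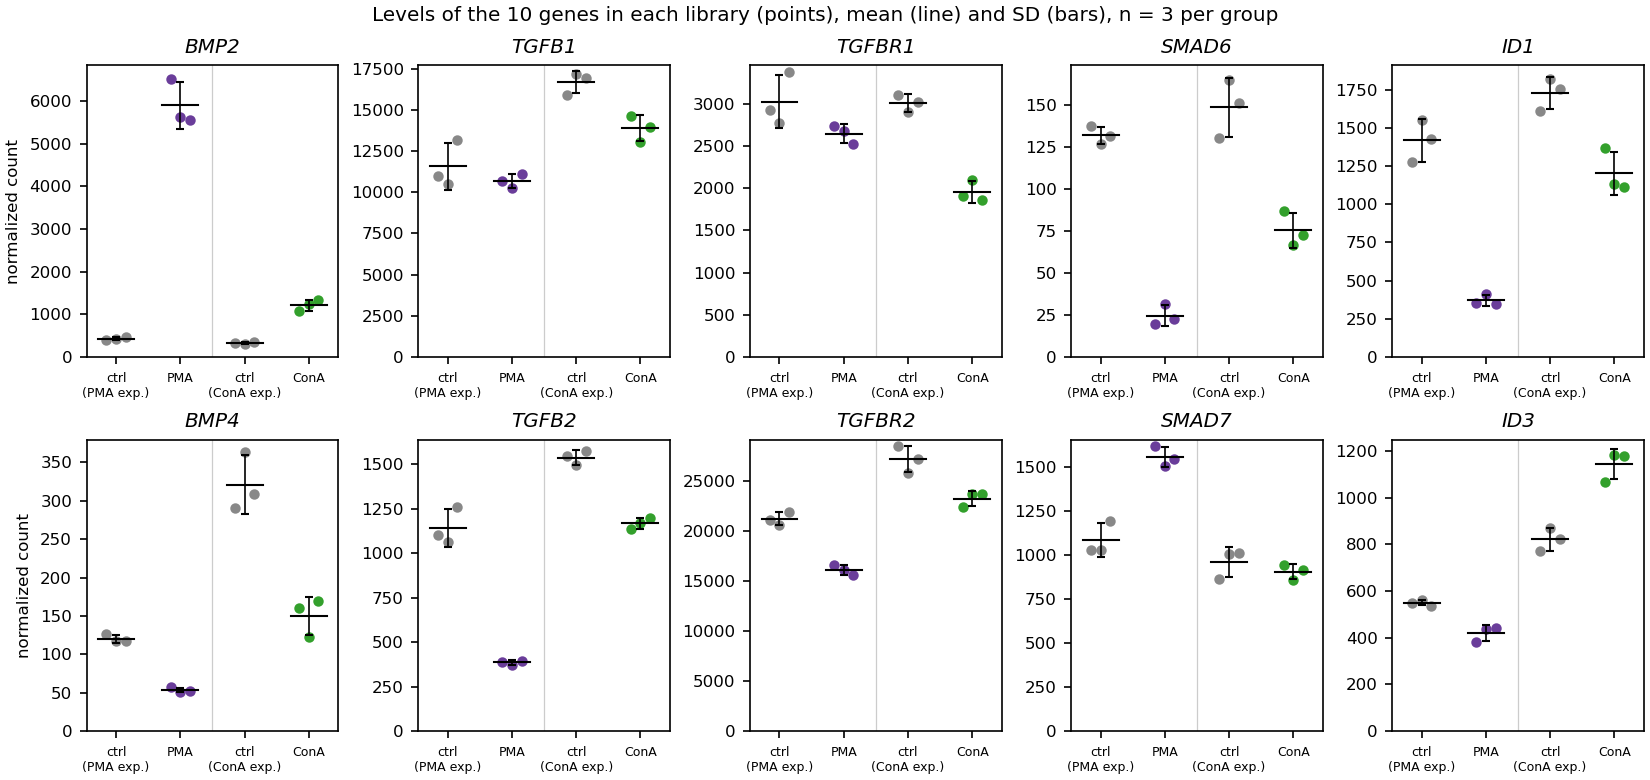
Normalized counts (vertical axes, from 0) of the 10 genes in each of the 12 libraries (points), with the mean and SD of 3 libraries per group; grey points are controls of each experiment. BMP2 in the PMA libraries lies between 5548 and 6530.0, above all control libraries, and SMAD6, ID1 and TGFB2 in the PMA libraries lie far below their controls.

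BMP2 encodes a secreted BMP ligand that induces bone and cartilage. It stood at 396, 419 and 466 normalized counts in the PMA controls and at 6530.0, 5619 and 5548 with PMA. In the ConA controls it stood at 327, 294 and 354, and with ConA at 1075, 1242 and 1327. Every treated library exceeded every control of its table, and the libraries with PMA held the highest levels of the gene. The rise with PMA, from 427 ± 35.4 to 5899 ± 548 (SD, n = 3), was 13.8-fold, a log2 fold change of 3.78 (limma, SE 0.07, adjusted p = 7.82e-12), which ranked 60 among the rises of all genes tested. The rise with ConA, from 325 ± 29.8 to 1215 ± 128 (SD, n = 3), was 3.73-fold, a log2 fold change of 1.90 (limma, SE 0.09, adjusted p = 4.69e-10).

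BMP4, a BMP ligand closely related to BMP2, moved the other way. It stood at 126, 117 and 117 normalized counts in the PMA controls and at 56.9, 51.3 and 52.7 with PMA. In the ConA experiment it stood at 291, 364 and 309 in the controls and at 160.2, 122 and 169 with ConA. Treated libraries lay below the controls in both tables without overlap. The log2 fold change was -1.15 with PMA (limma, SE 0.13, adjusted p = 1.53e-05) and -1.10 with ConA (limma, SE 0.13, adjusted p = 5.84e-06). These are the calls nearest to the thresholds. That with PMA ended without control 1 (log2 fold change -1.12, adjusted p = 2.35e-04), without control 2 (-1.17, adjusted p = 1.31e-04), without PMA library 2 (-1.12, adjusted p = 1.22e-04) and after quantile normalization (-0.93, adjusted p = 1.09e-04). That with ConA ended without ConA library 2 (-0.95, adjusted p = 2.01e-05) and without a variance trend (-1.10, adjusted p = 0.00125).

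TGFB1 encodes the TGF-beta ligand most studied in fibrosis and immune regulation. It stood at 11003, 10511 and 13187 normalized counts in the PMA controls and at 10661, 10255 and 11132 with PMA, and these groups overlapped. Its log2 fold change with PMA was -0.11 (limma, 95% interval -0.27 to 0.05, adjusted p = 0.208). In the ConA experiment it stood at 15919, 17199 and 16901 in the controls and at 14610, 13057 and 13981 with ConA, a log2 fold change of -0.26 (limma, 95% interval -0.39 to -0.14, adjusted p = 8.94e-04). Neither value reached the threshold, although in the ConA experiment the groups did not overlap. Exons of TGFB1 overlap those of HNRNPUL1 on the opposite strand, and whether the counting used strand is not given in the sources used here, so reads of the pair may be mixed. HNRNPUL1 had log2 fold changes of 0.15 with PMA and -0.14 with ConA.

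TGFB2 encodes a TGF-beta ligand with roles in development and in mesenchymal transition. It stood at 1104, 1060 and 1258 normalized counts in the PMA controls and at 389, 373 and 396 with PMA. All libraries with PMA lay below all controls. The fall, from 1141 ± 104 to 386 ± 12.1 (SD, n = 3), was a log2 fold change of -1.56 (limma, SE 0.07, adjusted p = 6.39e-09). For ConA, TGFB2 stood at 1543, 1493 and 1574 in the controls and at 1137, 1171 and 1195 with ConA. These groups did not overlap either, but the log2 fold change of -0.40 (limma, SE 0.06, adjusted p = 3.85e-05) was below the threshold on fold.

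TGFBR1 and TGFBR2 encode the type I and type II receptors for TGF-beta, and neither was called in either experiment. TGFBR1 stood at 2925, 2768 and 3378 normalized counts in the PMA controls and at 2734, 2681 and 2523 with PMA, a log2 fold change of -0.19 (limma, 95% interval -0.34 to -0.04, adjusted p = 0.0284). In the ConA experiment it stood at 3108, 2897 and 3020.2 in the controls and at 1907, 2100 and 1854 with ConA, a log2 fold change of -0.62 (limma, 95% interval -0.75 to -0.49, adjusted p = 6.54e-07). The gap between the groups was thus wider in the ConA experiment for this receptor. TGFBR2 stood at 21083, 20615 and 21928 in the PMA controls and at 16577, 16066 and 15555 with PMA, a log2 fold change of -0.40 (limma, 95% interval -0.49 to -0.31, adjusted p = 5.53e-06). With ConA it stood at 22384, 23638 and 23663 against 28473, 25827 and 27164 in the controls, a log2 fold change of -0.22 (limma, 95% interval -0.34 to -0.11, adjusted p = 0.00248). For both receptors the treated libraries lay below the controls without overlap, and all 4 intervals lie within a 2-fold change.

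SMAD6 and SMAD7 encode the inhibitory SMADs, of which SMAD6 acts mainly on BMP signaling and SMAD7 on TGF-beta as well as BMP signaling. SMAD6 stood at 137, 127 and 132 normalized counts in the PMA controls and at 19.7, 31.4 and 22.7 with PMA. Its fall, the largest of the 10 genes, from 132 ± 5.199 to 24.6 ± 6.04 (SD, n = 3), was a log2 change of -2.40 (limma, SE 0.19, adjusted p = 6.65e-07). Without a variance trend the call ended at the same fold change (adjusted p = 1.23e-04). For ConA, SMAD6 stood at 130.3, 165 and 151 in the controls and at 87.1, 66.9 and 72.8 with ConA. Its log2 fold change of -0.97 (limma, SE 0.15, adjusted p = 5.57e-05) lay just short of the threshold on fold and passed it after quantile normalization (-1.08), after median centring (-1.03), without ConA library 1 (-1.08) and without control 4 (-1.06).

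SMAD7 stood at 1029.9, 1028 and 1197 normalized counts in the PMA controls and at 1619, 1507 and 1547 with PMA. The libraries with PMA lay above the controls, with a log2 fold change of 0.52 (limma, 95% interval 0.38 to 0.67, adjusted p = 2.67e-05), which was below the threshold on fold. In the ConA experiment it stood at 866, 1007 and 1013 in the controls and at 942, 861 and 916 with ConA. Those groups overlapped, and the log2 fold change was -0.08 (limma, 95% interval -0.25 to 0.08, adjusted p = 0.354).

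ID1 and ID3 encode inhibitors of DNA binding and are common readouts of BMP signaling. ID1 stood at 1277, 1553 and 1425 normalized counts in the PMA controls and at 351, 413 and 348 with PMA. Its fall from 1419 ± 138 to 371 ± 36.4 (SD, n = 3) was a log2 change of -1.93 (limma, SE 0.09, adjusted p = 5.03e-09), and no library with PMA reached the level of a control. For ConA, ID1 stood at 1612, 1819 and 1758 in the controls and at 1366, 1129.9 and 1115 with ConA, a log2 fold change of -0.53 (limma, SE 0.08, adjusted p = 4.96e-05), below the threshold on fold.

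ID3 stood at 550.4, 562 and 538 normalized counts in the PMA controls and at 383, 439 and 443 with PMA, a log2 fold change of -0.39 (limma, 95% interval -0.55 to -0.22, adjusted p = 7.39e-04). In the ConA experiment it stood at 772, 870.4 and 823 in the controls and at 1068, 1182 and 1179 with ConA, a log2 fold change of 0.48 (limma, 95% interval 0.32 to 0.63, adjusted p = 4.17e-05). ID3 was not called in either experiment. Its treated libraries lay below the controls with PMA and above them with ConA, in each case without overlap.

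**Figure D2:**
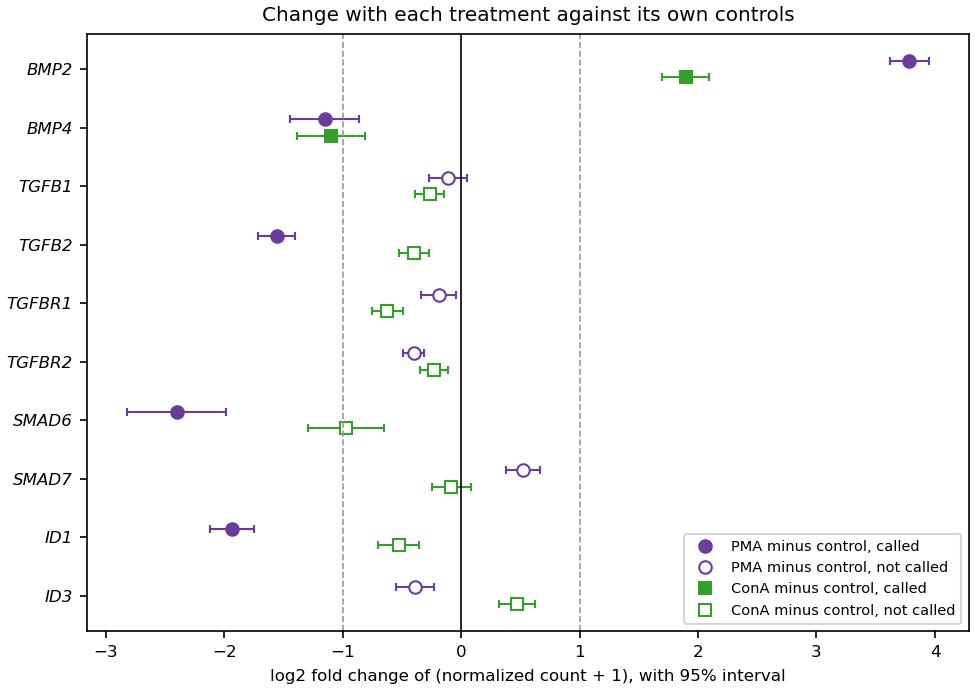
Log2 fold change of the 10 genes (horizontal axis) with PMA (circles) and ConA (squares), each against the controls of its own table, with 95% intervals from limma; filled symbols were called and dashed lines mark the threshold on fold. BMP2 lies at 3.78 and 1.90, BMP4 at -1.15 and -1.10, and ID3 lies on opposite sides of 0 with -0.39 and 0.48.

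The promoters of the pairs of inhibitory SMAD and ID genes are shown because the members of each pair parted under treatment, and that of TGFB2 because it fell with PMA. Each is the 250 bases before the most upstream start that RefSeq gives, written 5′ to 3′ on the strand of the gene, and capitals mark matches to CAGAC or its reverse complement, the short element that SMAD3 and SMAD4 bind.
SMAD6 promoter, GRCh38.p14 chr15:66701986-66702235, plus strand: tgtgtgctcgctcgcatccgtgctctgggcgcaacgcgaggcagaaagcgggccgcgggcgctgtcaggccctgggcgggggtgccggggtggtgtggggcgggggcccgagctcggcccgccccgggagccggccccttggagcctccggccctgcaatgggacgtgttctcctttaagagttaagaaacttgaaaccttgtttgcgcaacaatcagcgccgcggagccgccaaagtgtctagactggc
SMAD7 promoter, GRCh38.p14 chr18:48950966-48951215, minus strand: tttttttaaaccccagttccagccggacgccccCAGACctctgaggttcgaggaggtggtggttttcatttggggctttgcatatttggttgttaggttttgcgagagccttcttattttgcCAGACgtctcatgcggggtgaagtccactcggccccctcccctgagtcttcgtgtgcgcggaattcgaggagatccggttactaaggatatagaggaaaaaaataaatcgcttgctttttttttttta
ID1 promoter, GRCh38.p14 chr20:31605039-31605288, plus strand: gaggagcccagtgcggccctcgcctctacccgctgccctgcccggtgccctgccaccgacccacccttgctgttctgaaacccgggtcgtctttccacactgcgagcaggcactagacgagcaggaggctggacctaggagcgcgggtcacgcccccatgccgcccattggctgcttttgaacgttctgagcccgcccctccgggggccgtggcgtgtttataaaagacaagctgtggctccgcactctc
ID3 promoter, GRCh38.p14 chr1:23559502-23559751, minus strand: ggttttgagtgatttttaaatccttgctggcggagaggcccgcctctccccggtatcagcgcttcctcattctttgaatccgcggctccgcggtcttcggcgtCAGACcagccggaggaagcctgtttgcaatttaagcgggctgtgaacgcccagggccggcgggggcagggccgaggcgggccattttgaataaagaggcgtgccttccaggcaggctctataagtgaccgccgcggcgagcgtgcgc
TGFB2 promoter, GRCh38.p14 chr1:218345086-218345335, plus strand: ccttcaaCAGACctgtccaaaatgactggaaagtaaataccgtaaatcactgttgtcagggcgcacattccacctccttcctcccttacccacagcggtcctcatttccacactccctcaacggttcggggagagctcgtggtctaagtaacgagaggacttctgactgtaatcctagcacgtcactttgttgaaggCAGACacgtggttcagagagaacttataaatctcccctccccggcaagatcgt

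Sequences were found for 9 of the 10 genes, all except BMP2. For TGFB1 and TGFB2 the bases right after the start were found in no transcript of the gene in GENCODE. The motifs searched on both strands were CAGAC, the GC-rich GGCGCC of BMP-regulated SMADs, and TGANTCA, the site of AP-1 factors, which phorbol esters activate. CAGAC was in 4 of the 9 windows (BMP4, TGFB2, SMAD7 and ID3), beside 38.0% of 35097 windows of the same length before RefSeq starts. GGCGCC was in that of BMP4 only, beside 16.4%, and TGANTCA in none of the 9, beside 6.57%. The motifs do not overlap each other in these windows, and the matches describe letters only. ID1 and SMAD6, which fell with PMA, held no match, while TGFB2 held 2 matches to CAGAC and SMAD7 also held 2.

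A fit over all 12 libraries tested whether the response to PMA differed from the response to ConA (PMA minus ConA). Of the 10 genes 4 differed past the thresholds, 1 higher and 3 lower with PMA than with ConA, where 10.6% of 15030 genes did (3.67% and 6.89%). BMP2 had a difference of 1.89 (log2; limma, SE 0.13, adjusted p = 9.33e-10), so its rise was larger with PMA. TGFB2 had a difference of -1.16 (limma, SE 0.09, adjusted p = 6.60e-09) and ID1 one of -1.41 (limma, SE 0.13, adjusted p = 4.49e-08), both lower with PMA. That of SMAD6 was -1.43 (limma, SE 0.24, adjusted p = 6.54e-05). The call for SMAD6 ended after quantile normalization (-1.03, adjusted p = 0.00144), without a variance trend (adjusted p = 3.54e-04) and with 10 of the 12 libraries left out in turn, all except PMA library 2 and ConA library 2 (differences of -1.29 to -1.51 in those 10 fits). ID3 had a difference of -0.86 (95% interval -1.07 to -0.65, adjusted p = 1.23e-06) and SMAD7 one of 0.61 (95% interval 0.39 to 0.82, adjusted p = 6.72e-05), both below the threshold on fold. For BMP4 the difference was -0.06 (95% interval -0.45 to 0.34, adjusted p = 0.814), so changes that differ by up to 0.45 (log2) cannot be told from equal ones. Those of TGFB1 (0.16, 95% interval -0.05 to 0.36), TGFBR1 (0.44, 0.24 to 0.64) and TGFBR2 (-0.18, -0.32 to -0.03) were also below the threshold. PMA and ConA were given in separate experiments, so treatment and experiment cannot be told apart.

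Ratios of related genes within a library do not depend on a scaling by 1 factor per library. Whether the authors' scaling was of that kind is not given in the sources used here. The ratios are given as descriptions, with changes as differences in log2 of values + 1. Their level depends on transcript lengths, but their change does not. The ratio of BMP2 to BMP4 was 3.14, 3.57 and 3.97 in the PMA controls and 114.8, 109 and 105 with PMA. Around ConA it was 1.13, 0.81 and 1.15 in the controls and 6.71, 10.2 and 7.86 with ConA. Groups did not overlap in either experiment, with changes of 4.94 and 2.99 in the log2 ratio. The ratio of TGFB1 to TGFB2 was 9.97, 9.92 and 10.5 in the PMA controls and 27.4, 27.5 and 28.1 with PMA, nearly the same in all 3 libraries of a group. With ConA it was 12.9, 11.2 and 11.7 against 10.3, 11.5 and 10.7, and these groups overlapped. The ratio of SMAD7 to SMAD6 was 7.50, 8.10 and 9.08 in the PMA controls and 82.1, 48.0 and 68.0 with PMA, and it was 6.65, 6.10 and 6.70 in the ConA controls and 10.8, 12.9 and 12.6 with ConA. The groups were apart in both experiments, the more so with PMA, where the change in the log2 ratio was 2.93 against 0.89 with ConA. With a pseudocount of 10 in place of 1 the change with PMA was 2.57, and that of BMP2 to BMP4 was 4.79. The ratio of ID1 to ID3 was 2.32, 2.77 and 2.65 in the PMA controls and 0.92, 0.94 and 0.79 with PMA, and 2.09, 2.09 and 2.14 in the ConA controls and 1.28, 0.96 and 0.95 with ConA. It was thus lower in every treated library than in any control, with changes of -1.55 and -1.003 in the log2 ratio.

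**Figure D3:**
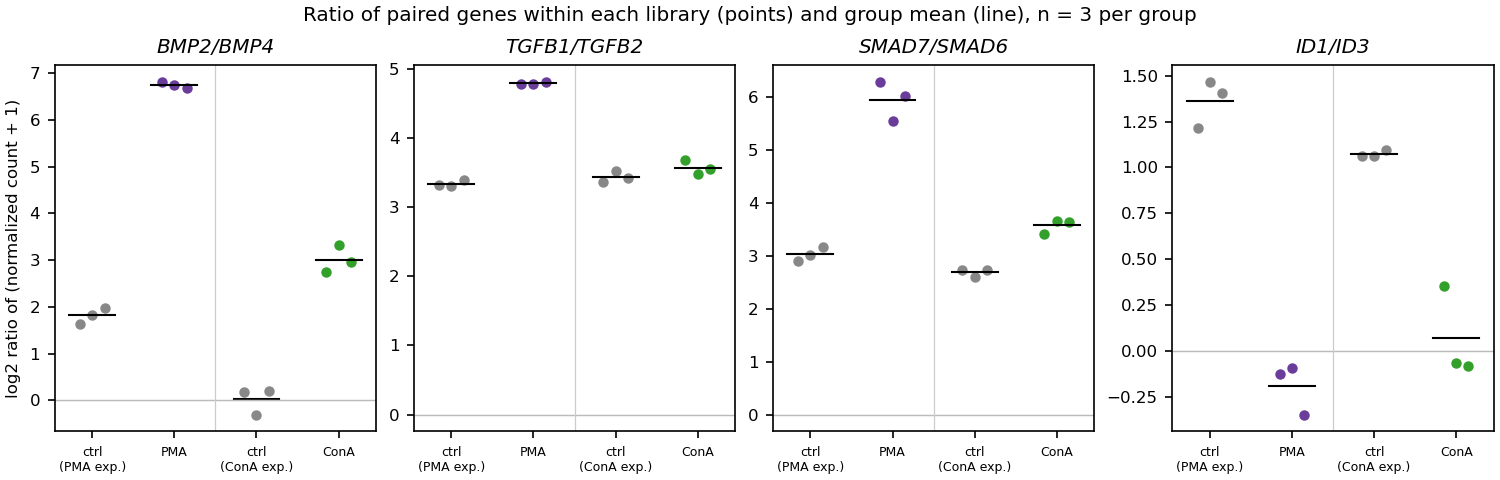
Log2 ratio of paired genes (vertical axes, normalized counts + 1) in each library (points) with the mean of each group of 3 (line). The log2 ratio of BMP2 to BMP4 rises by 4.94 with PMA and 2.99 with ConA, and the TGFB1 to TGFB2 ratio overlaps between ConA libraries and their controls.

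Other genes of the pathway were taken from lists by role, whose counts and medians are to be read against the shares called and the medians of all genes given above. Of the other ligands 17 were tested with PMA, of which 1 rose and 3 fell (median log2 fold change -0.58), and 16 with ConA, of which 1 fell (median -0.23). INHBA, the activin A subunit, rose from 2469 to 24494 normalized counts with PMA, a log2 fold change of 3.31 (limma, adjusted p = 4.65e-13), with 0.81 in ConA, below the threshold. INHBE, another inhibin beta subunit, fell with PMA (-2.15) and with ConA (-1.98, a call that ended without a variance trend). TGFB3, the third TGF-beta ligand, fell with PMA (-1.74), as did GDF6 (-2.10), whose call ended with any of the libraries except PMA library 2 left out (adjusted p from 1.30e-04 to 9.96e-04), with a pseudocount of 0.1 (adjusted p = 1.24e-04), after quantile normalization (-1.79, adjusted p = 3.31e-04) and without a variance trend (adjusted p = 0.00212). The changes of INHBA and TGFB3 differed between the treatments past the thresholds (2.50 and -1.52, PMA minus ConA).

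Among other receptors and co-receptors 2 of 13 rose and 3 fell with PMA (median -0.02), and 2 of 13 rose with ConA (median 0.18). TGFBR3, the co-receptor betaglycan, fell with PMA from 981 to 336 normalized counts, a log2 fold change of -1.54 (limma, adjusted p = 2.67e-08), and its ConA value was 0.10. ACVRL1, a type I receptor for BMP9 and BMP10 best known from endothelium, rose with ConA from 133 to 695 normalized counts, a log2 fold change of 2.38 (limma, adjusted p = 2.96e-10). Its log2 fold change with PMA was 0.04. The listed endothelial markers had log2 fold changes with ConA of 1.11 (KDR), 0.70 (PECAM1), 0.43 (TEK) and -0.89 (VWF), all short of the thresholds, CDH5 was not listed, and their part in the result was not tested. BMPR1B, a type I BMP receptor, and RGMB, a BMP co-receptor, rose with PMA (1.26 and 1.38), and ACVR1C, a receptor for activins and nodal, fell (-2.14). The calls for BMPR1B and ACVR1C ended without a variance trend, that for ACVR1C also after quantile normalization (-1.89) and without PMA control 1 (-2.01, adjusted p = 3.83e-04), control 2 (-2.18, adjusted p = 1.74e-04) or PMA library 2 (-2.10, adjusted p = 2.41e-04). RGMA, another BMP co-receptor, stood at 21.5 to 30.7 normalized counts in the PMA controls and at 1.16 to 1.90 with PMA, and at 5.00 to 14.0 in the ConA controls and 44.1 to 62.9 with ConA. It was called with both treatments, in opposite directions. At most 3 estimated reads were held by each library with PMA, so no fold is given for PMA, and the median above is the same with RGMA at the level of 3 reads. The call with PMA ended without control 1 (adjusted p = 5.49e-04) or control 2 (adjusted p = 2.95e-04) and that with ConA without ConA library 2 (adjusted p = 1.46e-04) or 3 (adjusted p = 1.96e-04) and without a variance trend. All 6 of these genes, ACVR1C, ACVRL1, BMPR1B, RGMA, RGMB and TGFBR3, also differed between the treatments past the thresholds, ACVR1C not without a variance trend.

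Genes of ligand latency and extracellular antagonists gave 1 rise and 1 fall of 15 with PMA (median -0.00054) and 2 rises and 1 fall of 14 with ConA (median -0.0022). NOG, the secreted BMP antagonist noggin, fell with both treatments, from 3097 to 955 normalized counts with PMA (log2 fold change -1.69, adjusted p = 8.54e-10 from limma) and from 4355 to 1702 with ConA (-1.36, adjusted p = 1.07e-09 from limma). NRROS, which tethers latent TGF-beta on myeloid cells, rose with PMA (1.38), with 0.82 in ConA, below the threshold. With ConA rises were found for BMPER, an extracellular modulator of BMPs (2.08), and for the activin antagonist follistatin FST (1.04). The call for FST ended without ConA library 3 (0.98), without control 4 (0.99) and after quantile normalization or median centring, and those for NRROS, BMPER and FST ended without a variance trend. Differences between the treatments were called for BMPER (-1.44) and FST (-1.04), PMA minus ConA. That for BMPER ended without PMA control 1 or 3, PMA library 2 or 3, ConA library 2 or 3, or ConA control 5 or 6 (adjusted p from 1.92e-04 to 3.30e-04), after quantile normalization (-1.10, adjusted p = 0.001003) and without a variance trend (adjusted p = 8.82e-04). That for FST ended without ConA library 3 (-0.98) or control 4 (-0.99), after quantile normalization (-0.93) and after median centring (-0.99).

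None of the 6 receptor-regulated and common SMADs was called with either treatment in limma (median -0.18 with PMA and 0.05 with ConA). SMAD1, which carries BMP signals, came nearest, at 0.99 (log2 fold change, PMA, adjusted p = 5.78e-09) and 0.63 (ConA, adjusted p = 1.43e-06). SMAD3, which carries TGF-beta signals, had -0.66 with PMA (adjusted p = 5.76e-07) and -0.06 with ConA (adjusted p = 0.336). Among 12 other inhibitors, 2 rose and 1 fell with PMA (median 0.11) and 1 fell with ConA (median 0.07). The ubiquitin ligases NEDD4L (1.45) and SMURF2 (1.03) rose and the pseudoreceptor BAMBI fell (-1.15) with PMA. PMEPA1, a feedback inhibitor of TGF-beta signaling, fell with ConA (-1.12). Its value with PMA was -0.80 (limma, adjusted p = 2.33e-07), below the threshold on fold. The call for SMURF2 ended without PMA control 2 (0.97) or PMA library 1 (0.99). That for BAMBI ended without control 1 (adjusted p = 2.56e-04), control 2 (adjusted p = 1.002e-04), PMA library 1 (adjusted p = 1.41e-04) or PMA library 3 (adjusted p = 1.25e-04). The calls for SMURF2 (0.92) and BAMBI (-0.96) also ended after quantile normalization, and that for BAMBI without a variance trend (adjusted p = 8.32e-04). BAMBI, NEDD4L and SMURF2 differed between the treatments (-2.10, 1.07 and 1.14), NEDD4L not after quantile normalization (0.87).

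Of 9 other BMP-SMAD target genes 1 fell with PMA, RUNX2, a factor of bone differentiation (log2 fold change -2.03, adjusted p = 2.04e-09 from limma), and of 8 tested with ConA none was called. Medians were -0.24 and -0.05. ID2, related to ID1 and ID3, had log2 fold changes of -0.07 with PMA and 0.75 with ConA (adjusted p = 0.605 and 8.71e-04 from limma). Of 23 other target genes of TGF-beta 2 rose and 3 fell with PMA (median -0.06), and of 19 tested with ConA 2 fell (median -0.32), 1 of them PMEPA1, which is on both lists. TGFBI, a secreted matrix protein named for its induction by TGF-beta, fell with both (-1.24 and -1.90, that with PMA not without a variance trend). With PMA CCN2 (1.27, not without a variance trend) and JUNB (1.20) rose and SNAI1 (-1.89) and COL1A2 (-1.04) fell. With ConA the values of CCN2, JUNB, SNAI1 and COL1A2 were -0.32, 0.88, -0.56 and 0.92, all below the threshold on fold. The call for COL1A2 ended without control 1 (adjusted p = 1.19e-04) or PMA library 2 (-0.96), after quantile normalization (-0.90) and without a variance trend. Differences between the treatments were called for RUNX2 (-2.03), MSX2 (-1.03), CCN2 (1.59), COL1A2 (-1.96), SNAI1 (-1.32) and SNAI2 (1.06), PMA minus ConA, and that for MSX2 ended with any library left out except ConA library 1, with a pseudocount of 10 (-0.95), after quantile normalization (-0.71) and after median centring (-0.98).

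**Figure D4:**
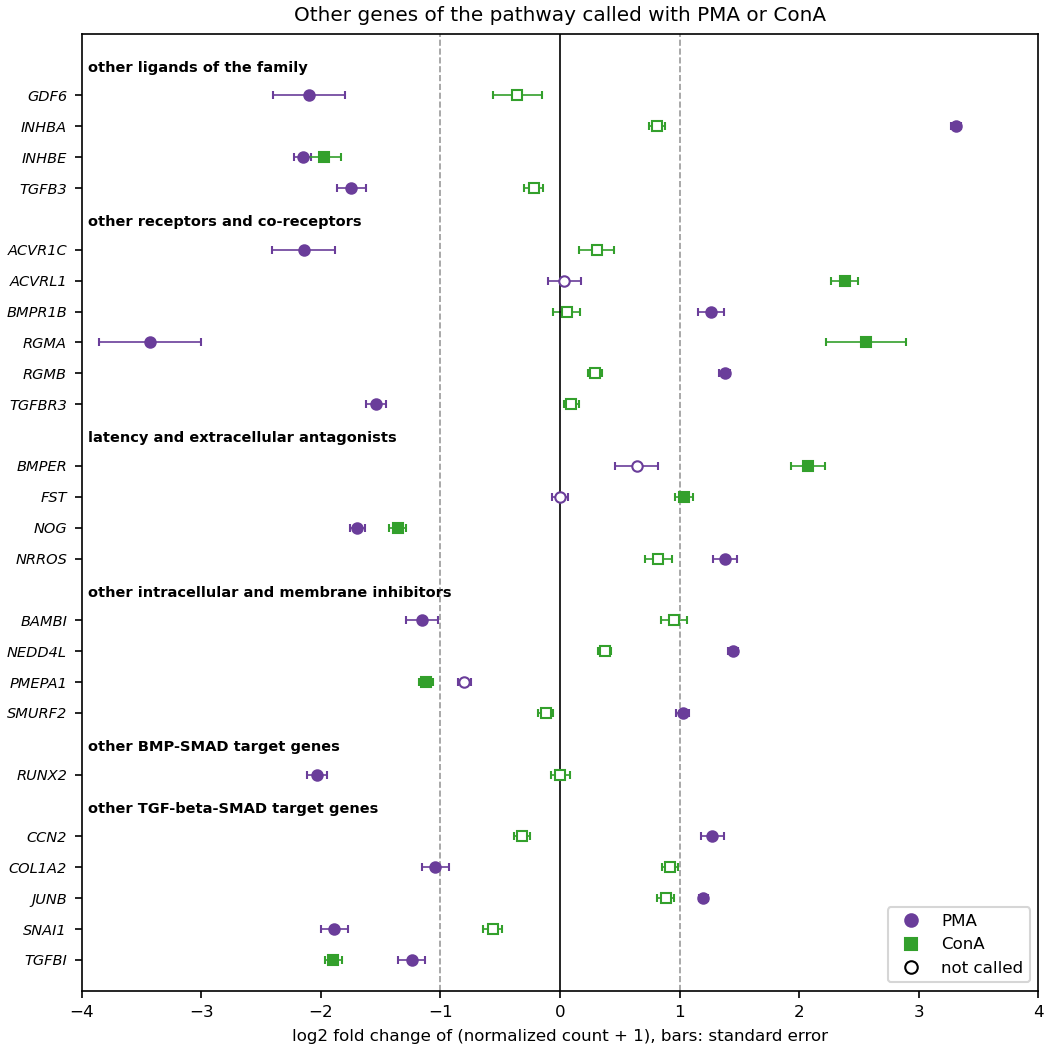
Log2 fold change (horizontal axis, bars are standard errors from limma) of the other pathway genes called with PMA (circles) or ConA (squares), by role, with filled symbols for calls and dashed lines at the threshold on fold. INHBA lies at 3.31 with PMA and NOG, INHBE and TGFBI lie left of -1 with both treatments; the fitted value of RGMA with PMA rests on at most 3 reads per library and is no bound.

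For each called member the genes with the nearest profile were found among 14661 genes tested in both tables, as the smallest distance between log2 values, centred on the controls of each table, over the 12 libraries. These are descriptions, and the libraries of a group share their treatment. ID1 was nearest to LOC729970 (distance 0.36, Pearson r = 0.996 over 12 libraries) and to SNAI1 (distance 0.42, r = 0.988), a repressor of epithelial genes. TGFB2 was nearest to TNFRSF19 (0.297, r = 0.994) and CPA4 (0.33, r = 0.991), and BMP4 to PLCD3 (0.34, r = 0.985) and PC (0.35, r = 0.987). SMAD6 was near to FAM13C (0.66, r = 0.988). BMP2 had no gene so near, the smallest distances being those to ALOXE3 (1.25, r = 0.978) and CYB5R2 (1.38, r = 0.99).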

How the data were processed

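Polyadenylated RNA of HT1080 cells was sequenced by a service company. The deposited signal values are normalized counts per gene symbol, 1 table per experiment; how the authors scaled them is not given in the sources used here. The submitters' processing notes name Partek, STAR, Bowtie2 and DESeq2 and the builds hg19 and mm10, with no role for any of them. Reads were estimated with 1 factor per library, chosen on values between 5 and 60. Under it 81.8% to 84.2% of these values came within 0.05 of a whole number, so reads could not be recovered for every gene and read-count tests were not run.

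Log2(normalized count + 1) was fitted with limma 3.58.1 (R 4.3.3) using a variance trend, within each table, for genes with a mean of at least 10, with Benjamini-Hochberg adjustment over every gene tested. Calls needed a log2 fold change of 1 or more in size and an adjusted p no higher than 0.0001. The change with PMA minus that with ConA was fitted over all 12 libraries. The code was tested on simulated data. Members, gene lists, motifs and the rule for named genes were chosen with earlier results of these data known. The genes named are the members, the called genes of the pathway lists (up to 6 per list and comparison) and, for each called member, the 2 genes with the nearest profile. A gene of the TGF-beta target list and a neighbouring profile are not reported here, and list counts leave the former out. HNRNPUL1, ID2, SMAD1 and SMAD3 were chosen after their values were seen. Alternatives covered pseudocount, filter, scaling, variance trend, thresholds, the replicate number as a block, 1 fit of all libraries, and each library left out. Sequences came from RefSeq (GRCh38.p14), overlapping genes and the transcripts compared with the starts from GENCODE. Figures were drawn with matplotlib 3.10.9 in Python 3.11.15.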

Additional observations from a re-analysis of the deposited data

Results flagged for a closer look

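For 4 of the 10 genes the change with PMA differed from that with ConA past the thresholds in the test of the difference itself (PMA minus ConA, log2). Of all 15030 genes tested 10.6% did (3.67% higher and 6.89% lower with PMA). The values were 1.89 for BMP2, which rose with both treatments, -1.16 for TGFB2, -1.43 for SMAD6 and -1.41 for ID1, which fell with PMA and whose log2 fold changes with ConA were -0.40, -0.97 and -0.53. In each table all 3 treated libraries of BMP2 lay above all 3 controls, and those of TGFB2, SMAD6 and ID1 below them. The groups were fully apart for 67.9% of all genes tested with PMA and 69.3% with ConA. The value for SMAD6 did not pass in 10 of the 12 fits with 1 library left out, and the other 3 passed in all of them. Groups of 3 libraries are too small for a test of single outlying libraries.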

How the results depend on the processing

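Over all settings 503 log2 fold changes of the 10 genes kept their direction and their side of the thresholds. Another 19 fell short of a threshold that they had passed, 13 newly passed and 5 turned direction. The 13 include passes with no minimum fold, where the threshold on fold was dropped. In the other settings only SMAD6 with ConA newly passed. Direction turned only for differences between the treatments that were not called: that for BMP4 was 0.0171 with a pseudocount of 10, 0.30 after quantile normalization, and between -0.197 without ConA library 2 and 0.0347 without ConA library 3 with 1 library left out (0.0131 without control 4), and that for TGFB1 was -0.0294 after quantile normalization. The cause was not tested. Without a variance trend the calls numbered 867 for PMA and 662 for ConA, 1 of the 10 genes with ConA. With no minimum fold 3912, 4618 and 4062 genes were called with PMA, with ConA and for their difference, and 7 of the 10 genes with ConA. With 1 library left out, the genes called numbered 1107 to 1252 with PMA, 1123 to 1415 with ConA and 1427 to 1594 for the difference, and of the 10 genes 4 to 5, 1 to 3 and 3 to 4. For ConA the 1 remaining call without ConA library 2 was BMP2. The calls for BMP2 with both treatments and for TGFB2 and ID1 with PMA held in every setting. Quantile normalization moved the share of rises among the genes called for the difference from 34.7% to 42.6%. Same-numbered PMA and control libraries had correlations of their deviations of -0.06, 0.10 and 0.10. Control 1 correlated best with PMA library 2 (0.11), and controls 2 and 3 with the PMA library of their own number. Such small correlations among 3 libraries per group cannot decide whether the numbers pair the libraries. With the replicate number as a block 1264 genes were called with PMA, the same 5 of the 10 genes among them, and of the pathway genes RGMA lost its call (adjusted p = 1.20e-04). The ConA groups share no numbers. Of the other pathway genes called, 10 of 20 with PMA, 4 of 8 with ConA and 14 of 19 for the difference kept their call in every setting, a check added after the data were seen. Depth limits SMAD6 with PMA most, at 17.0 estimated reads in 1 library.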

Other observations

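The control libraries of the 2 experiments, which have no library in common and were normalized apart, stood at different levels for some of these genes. BMP4 had 120 ± 5.23 normalized counts in the PMA controls and 321 ± 38.3 in the ConA controls (SD, n = 3 each), and ID3 had 550.0 ± 11.8 and 822 ± 49.1. TGFBR1 had 3023 ± 317 and 3008 ± 106, and SMAD6 132 ± 5.20 and 149 ± 17.5. The ratio of BMP2 to BMP4, which a scaling by 1 factor per library does not touch, was 3.14 to 3.97 in the PMA controls and 0.81 to 1.15 in the ConA controls. ID1 to ID3 gave 2.32 to 2.77 and 2.09 to 2.14. No test was made across the tables.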
